A study of Cucumis melo with 62 samples.

Results

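Melon fruit from a field in California were compared with fruit from 4 other fields of 2019, in Georgia, in North Carolina, at Uvalde in Texas and in Arizona. The comparison drew on 29 of the 62 libraries of the series: 6 from California and 23 from the other fields, of which Georgia gave 5 and North Carolina, Uvalde and Arizona gave 6 each. Every field held the same pair of cultivars of melon (Cucumis melo), F39 and TTDV, both labelled as wild type in genotype, with 3 libraries per cultivar and field except for TTDV Georgia, which had 2. Fruit were harvested when mature, about 45 days after flowering, and the libraries were made from messenger RNA of frozen, powdered fruit. The labels name no treatment, and they state neither the plants behind each library nor the part of the fruit used. The p-values therefore measure only the spread between these samples, which may be technical. Each group was a single place in a single season, so place, planting date, weather, soil and handling cannot be told apart. The members of each group were chosen by cultivar, place and year alone. The difference reported is the California mean minus the mean of the 4 other fields, with the cultivars weighted equally within a field and the fields weighted equally.

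As a melon ripens, its flesh softens, stores sugar, turns from green towards its ripe colour as carotenoids build up, and gives off aroma esters. Ethylene drives part of these changes in cultivars with a climacteric, and heat, water supply and light during growth are known to shift their timing. In bulk tissue, fewer cells of a type and less RNA per cell cannot be told apart. The gene IDs were matched to no product names, so levels are given by ID and no gene function is stated.

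The deposited values are variance-stabilised and log2-like, and differences are given on that scale in units. Levels are given as normalised reads, recovered by inverting the transform. The California libraries held 12151662 to 22067288 reads, against 6251302 to 31333150 in the other fields, and the 10 most abundant genes took 4.54% to 8.12% of the reads against 6.56% to 16.7%. On this scale a doubling from 10, 100 and 1000 reads is 0.405, 0.812 and 0.975 units. All 6 California libraries were most similar to another library of their own group. Some libraries of the other fields stood apart from their labels. On 56 genes that separated the cultivars in North Carolina, Arizona and California, the 3 Uvalde libraries labelled F39 lay on the TTDV side for 91.1% to 98.2% of the genes, and the 3 labelled TTDV lay on the F39 side for 96.4%. F39 Georgia replicates 2 and 3 lay on the TTDV side for 39.3% and 46.4% of them, against 7.14% in replicate 1. Replicate 3 of TTDV North Carolina and that of F39 Uvalde were each nearest to the other, TTDV Georgia replicate 1 was nearest to TTDV California replicate 2, and TTDV Uvalde replicate 2 was nearest to F39 California replicate 1. None of the 3 F39 Georgia libraries was nearest to its own group: replicate 1 was nearest to F39 Arizona replicate 1, replicate 2 to F39 California replicate 3 and replicate 3 to TTDV Indiana replicate 1. Labels were kept as deposited, and results that rest on these libraries are given with and without them. Genes past the threshold were named below, where any existed, for California libraries that did not overlap those compared. For the cultivar difference they were named for effects of opposite sign. The lack of overlap is therefore how these genes were chosen and is no test.

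MELO3C005246.2 was read almost only in California fruit. It had 837, 372 and 509 reads in F39 and 163, 341 and 160.0 in TTDV there, while 17 of the 23 libraries of the other fields held no read and the highest held 10.1. Reads of the gene were found in both cultivars in California, and neither group came near the other fields. The California mean lay above that of the other fields by 4.25 ± 0.17 (SE, limma adjusted p = 1.93e-17). The gene entered the test mainly through the California libraries, where it was high, so its adjusted p adds no support to these levels. The SE rests on a spread shared by all groups of F39 and TTDV, most of them near a count of 0. It does not measure the spread within California alone. MELO3C020157.2 was present everywhere and higher in California, at 1610.0, 1653 and 1835 reads in F39 and 928, 1641 and 909.9 in TTDV. In the other fields it ranged from 25.8 to 510.2 (median 192). No library of the other fields reached the lowest California library, and the difference was 2.70 ± 0.43 (SE, limma adjusted p = 0.000914). Within TTDV alone its difference was 2.50 ± 0.61 (adjusted p = 0.0233), and without the Uvalde libraries the adjusted p there was 0.0696.

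In all, 99 of 17383 genes tested (0.57%) passed the threshold of adjusted p under 0.05 in limma, 70 higher (0.403%) and 29 lower (0.167%) in California. The median difference of the higher genes was 0.82 units and that of the lower genes -0.74, against -0.02 over all genes tested. A difference of at least 1 unit was reached by 27 of the higher genes and 8 of the lower genes. The higher genes stood at a median of 218 reads in California against 97.7 in the other fields, and the lower genes at 162 against 342. All 6 California libraries lay above all 23 others for 10 genes (0.0575% of those tested), each of which was among the 70. No gene had all 6 California libraries below the other 23. The 10 genes ran from 12.7 to 1429 reads as California means, and the smallest of their differences was 1.01 units.

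The genes lower in California had smaller gaps. MELO3C007140.2 had 185, 77.4 and 216 reads in F39 and 78.4, 106 and 68.8 in TTDV, against 103 to 1008 (median 319.8) reads over the other fields. The ranges overlapped, with F39 Arizona replicates 1 and 2 inside the range of F39 California, and the difference was -1.36 ± 0.24 (SE, limma adjusted p = 0.00288). North Carolina lay farthest from California (-2.18 ± 0.30 units) and Arizona nearest (-0.91 ± 0.30). The differences from Arizona (limma adjusted p = 0.181) and Georgia (0.107) did not pass the threshold, nor did that within F39 alone, -1.15 ± 0.33 (adjusted p = 0.0708). F39 California and F39 Arizona differed by -0.06 ± 0.42. MELO3C015743.2 had 3.58, 24.8 and 5.1 reads in F39 and 3.69, 1.44 and 1.06 in TTDV, against 5.16 to 439 (median 42.1) elsewhere, a difference of -1.35 ± 0.33 (SE, limma adjusted p = 0.0492). Its call was close to the threshold. It was lost on leaving out any of 24 of the 29 libraries, with adjusted p from 0.00826 to 0.188 over the 29, and under 5 of 10 other settings, where adjusted p ran from 0.000318 to 0.13.

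The California mean lay above the mean of each of the 4 fields for 62 of the 70 higher genes, and below each for 27 of the 29 lower genes. Over all genes tested, California was the highest of the 5 fields for 11.0% and the lowest for 13.6%. The lists were chosen on this contrast, so these counts describe them. Among the higher genes the median difference was 0.55 units from Georgia, 0.58 from Arizona, 0.99 from Uvalde and 1.22 from North Carolina. The lower genes kept that order, at -0.47, -0.54, -0.84 and -1.14. The direction was the same in F39 and TTDV for 63 of the 70 higher genes and 29 of the 29 lower genes. Median differences were 0.64 in F39 and 1.01 in TTDV for the higher genes, and -0.71 and -0.77 for the lower ones. The genes were called on the mean of the F39 and TTDV differences, so the shared direction is partly built in and is no second test. For 20 of the 70 and 2 of the 29, the F39 and TTDV differences themselves differed past the threshold, against 6.43% of all genes tested.

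The 9 libraries of the same cultivars that entered no contrast were set beside the list. The California mean lay above Uvalde 2018, with 3 libraries per cultivar, for 67 of the 70 higher genes, with a median difference of 0.64 units, and below it for 29 of the 29 lower genes, with a median of -0.58. It lay above Uvalde 2018 for 42.4% of all genes tested and below it for 57.5%. TTDV California lay above TTDV Indiana 2019, with 3 libraries, for 66 of the 70 higher genes and below it for 27 of the 29 lower genes, against 47.9% and 51.1% of all genes. These counts share the California libraries with the list, so they are no second test of California.

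The number of genes passing depended on single libraries. Leaving out F39 California replicates 1, 2 and 3 gave 23, 60 and 30 genes, and leaving out TTDV California replicates 1, 2 and 3 gave 36, 29 and 25. Dropping TTDV Georgia replicate 1 left 61 genes, whereas dropping TTDV Uvalde replicate 2 left 163. Without the 6 Uvalde libraries 192 genes passed, and 79 of the 99 were among them. Without F39 Georgia replicates 2 and 3 the count was 229, with 98 of the 99, and without the pair of similar libraries it was 333, with 99 of the 99. A fit by voom on the recovered reads called 80 genes higher and 10 lower, so the split between directions moved with the method. MELO3C020157.2 passed under each of 29 left-out libraries and 10 other settings. So did MELO3C005246.2, but it entered the test mainly through California, so its passing adds no support.

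**Figure D1:**
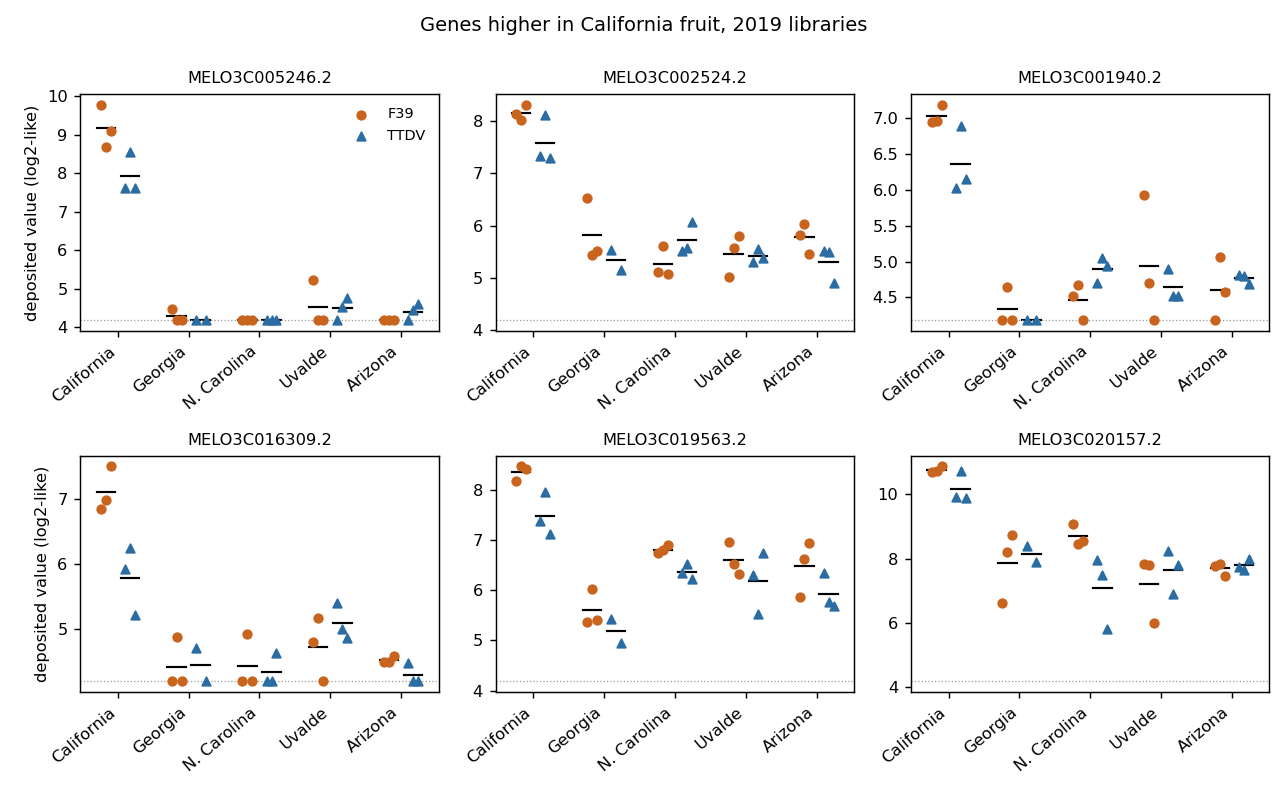
Deposited log2-like values (vertical axis) of 6 genes higher in California fruit, by field (horizontal axis). Each point is a library, circles are F39 and triangles TTDV, short lines are group means and the dotted line is the value of a count of 0. MELO3C005246.2 sits at or near a count of 0 outside California, where at most 10.1 reads were found, and its 6 California libraries hold 160.0 to 837 reads.

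Against single fields, the smallest sets of differences were those with Georgia and Arizona. The median absolute difference of all genes from California was 0.195 units for Arizona, 0.224 for Georgia, 0.293 for Uvalde and 0.301 for North Carolina. Genes at least 2 units apart numbered 24, 33, 282 and 108 in the same order. Within TTDV, 10 genes lay at least 2 units apart between California and Georgia, 162 between California and Arizona, 604 with North Carolina and 1079 with Uvalde as labelled. Within F39 the numbers were 310, 267, 192 and 371. The comparisons with single fields share the California libraries, and their values are given side by side.

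Compared with Georgia, California fruit had more reads of MELO3C019563.2 and MELO3C001940.2. The first had 256, 319 and 306 reads in F39 and 133, 212 and 105 in TTDV in California, and 12.9, 34 and 13.8 in F39 and 14.2 and 5.26 in TTDV at Georgia. The groups did not overlap, and the difference was 2.53 ± 0.24 (SE, limma adjusted p = 1.38e-07). The same gene lay above North Carolina by 1.33 ± 0.23, Uvalde by 1.52 ± 0.23 and Arizona by 1.72 ± 0.23, each past the threshold, and its lowest California library was above all 23 others. MELO3C001940.2 had 90.1, 90.6 and 112 reads in F39 and 34.1, 85.2 and 39.2 in TTDV in California. At Georgia it had 0, 1.89 and 0 in F39 and no read in either TTDV library, a difference of 2.43 ± 0.25 (SE, limma adjusted p = 3.02e-07). It too was higher than in each other field, by 2.02 ± 0.23 for North Carolina, 1.90 ± 0.23 for Uvalde and 2.01 ± 0.23 for Arizona. F39 Uvalde replicate 1, at 30.2 reads, came nearest to California. The California libraries alone were enough to bring MELO3C001940.2 into the test, so its adjusted p is no separate support for these levels.

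The only gene past the threshold with all California libraries below all Georgia libraries was MELO3C006968.2. It had 124, 200.2 and 239.8 reads in F39 and 287, 318 and 329 in TTDV in California, against 647, 419.9 and 942 in F39 and 420.2 and 453 in TTDV at Georgia, a difference of -1.04 ± 0.23 (SE, limma adjusted p = 0.0434). Its differences from the other 3 fields ran from -0.41 ± 0.22 to 0.03 ± 0.22, none past the threshold, and 19 of the 29 left-out libraries cost it the call (adjusted p from 0.0154 to 0.377). It also lost its call with no filter, with quantile normalization, with the compared groups only and with voom (limma adjusted p from 0.0058 to 0.0592 over 10 other settings). In all, 38 genes (0.219%) passed against Georgia, 27 higher (0.155%) and 11 lower (0.0633%). Libraries did not overlap for 19 and 1 of them, against 0.869% and 0.414% of all genes tested. Quantile normalization gave 43 higher and 7 lower, and voom 26 and 6. The count was between 8 and 24 on leaving out any of 17 libraries: F39 Georgia replicate 3, TTDV Georgia replicates 1 and 2, F39 North Carolina replicates 1, 2 and 3, F39 Uvalde replicate 2, TTDV Uvalde replicate 3, F39 Arizona replicates 1 and 2, TTDV Arizona replicates 2 and 3, F39 California replicates 1 and 2 and TTDV California replicates 1, 2 and 3. It rose above 1.5 times the count when F39 Georgia replicate 1 (67), F39 Georgia replicate 2 (140), TTDV North Carolina replicate 3 (97) or F39 Uvalde replicate 3 (71) was dropped. Without F39 Georgia replicates 2 and 3 together, 206 genes passed, 73 higher and 133 lower, and 24 of the 38 were among them.

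Compared with Arizona, MELO3C002524.2 and MELO3C016309.2 were higher in California. MELO3C002524.2 had 247, 224 and 283 reads in F39 and 128, 244 and 123 in TTDV in California, against 26.2, 34.4 and 15.2 in F39 and 16.6, 16.1 and 4.46 in TTDV at Arizona. The groups stood apart, with a difference of 2.34 ± 0.21 (SE, limma adjusted p = 3.29e-08). Its differences from the other fields were similar, 2.29 ± 0.22 from Georgia, 2.39 ± 0.21 from North Carolina and 2.44 ± 0.21 from Uvalde, and the highest of the 23 libraries, F39 Georgia replicate 1, had 59.3 reads. MELO3C016309.2 had 81.5, 93.5 and 148 reads in F39 and 29.5, 44 and 9.53 in TTDV in California and at most 1.38 reads at Arizona, a difference of 2.06 ± 0.23 (SE, limma adjusted p = 4.77e-06). F39 California was above TTDV California for this gene, and TTDV California replicate 3 fell within the range of the other fields, whose highest library, TTDV Uvalde replicate 1, had 13.5 reads.

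Arizona was higher than California for MELO3C006678.2 and MELO3C002381.2. MELO3C006678.2 had 117, 390.1 and 712 reads in F39 and 344, 404 and 57.2 in TTDV in California, against 1400.0, 2850.0 and 1916 in F39 and 1295, 1682 and 1413 in TTDV at Arizona, a difference of -2.53 ± 0.56 (SE, limma adjusted p = 0.0347). MELO3C002381.2 had at most 4.33 reads in California and 7.38, 66.5 and 47 in F39 and 107, 72.3 and 52 in TTDV at Arizona, with a difference in means of -1.89 ± 0.40 (SE, limma adjusted p = 0.0223). The Arizona libraries alone were enough to bring it into the test, so this adjusted p is no separate support for these levels. The other fields lay near California for this gene, with differences from -0.37 ± 0.42 for Georgia to 0.04 ± 0.40 for Uvalde, none past the threshold. Both calls depended on single libraries. MELO3C006678.2 lost its call on leaving out any of 9 libraries (adjusted p from 0.00498 to 0.141) and MELO3C002381.2 on leaving out any of 7 (from 0.014 to 0.0914). MELO3C006678.2 also lost it with the compared groups only (from 1.46e-05 to 0.0529 over 10 other settings).

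In all, 69 genes (0.397%) passed against Arizona, 29 higher (0.167%) and 40 lower (0.23%), and the libraries of 23 and 16 of them did not overlap, against 0.823% and 0.863% of all genes tested. Leaving out F39 Arizona replicates 2 and 3 gave 25 and 34, TTDV Arizona replicates 1, 2 and 3 gave 25, 28 and 42, F39 California replicate 1 gave 22, and TTDV California replicates 1, 2 and 3 gave 36, 30 and 32. More genes passed without F39 Georgia replicate 1 (123), TTDV North Carolina replicate 3 (131), F39 Uvalde replicate 3 (112) or TTDV Uvalde replicate 2 (153). Without all 6 Uvalde libraries 194 passed, and the 69 were all among them.

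North Carolina differed from California for many more genes. MELO3C003294.2 had 4411, 3026 and 8894 reads in F39 and 10134, 14433 and 13544 in TTDV in California, against 1716, 907 and 1200.0 in F39 and 241, 70.1 and 53.3 in TTDV at North Carolina. It was higher in California by 4.26 ± 0.63 (SE, limma adjusted p = 7.58e-05), and by 2.42 ± 0.63 than at Uvalde, while Georgia (0.43 ± 0.67) and Arizona (0.87 ± 0.63) did not differ past the threshold. MELO3C014433.2 had 252, 842 and 3661 reads in F39 and 2079, 2452 and 1040.0 in TTDV in California, against 193, 87.4 and 40.4 and 58.2, 28.1 and 3.44 in F39 and TTDV at North Carolina, a difference of 4.01 ± 0.82 (SE, limma adjusted p = 0.00206). Georgia and Arizona had means above California for it (-1.19 ± 0.87 and -0.45 ± 0.82), not past the threshold.

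MELO3C022772.2 and MELO3C016781.2 were lower in California than at North Carolina. MELO3C022772.2 had 4178, 3800.0 and 3643 reads in F39 and 4514, 3523 and 101 in TTDV in California, and 19433, 46375 and 26706 in F39 and 20758, 28671 and 71944 in TTDV at North Carolina, a difference of -3.82 ± 0.86 (SE, limma adjusted p = 0.0041). TTDV California replicate 3 stood far below the other 5 California libraries. California did not differ past the threshold from Georgia (0.63 ± 0.91), Uvalde (-0.20 ± 0.86) or Arizona (2.36 ± 0.86) for this gene. MELO3C016781.2 had 1062, 592 and 328 reads in F39 and 329, 287 and 99.6 in TTDV in California, against 2783, 1805 and 4470.0 in F39 and 3162, 4993 and 1418 in TTDV, a difference of -2.85 ± 0.52 (SE, limma adjusted p = 0.000795). Its difference from Uvalde also passed, at -2.06 ± 0.52 (limma adjusted p = 0.0113). Those from Georgia (-0.54 ± 0.56) and Arizona (-0.21 ± 0.52) did not. In all, 2171 genes (12.5%) passed against North Carolina, 1156 higher (6.65%) and 1015 lower (5.84%). The libraries of 304 and 279 of these did not overlap, against 2.13% and 2.04% of all genes tested. The count was 1422 without F39 California replicate 3, 1380 without TTDV California replicate 3 and 2643 without the pair of similar libraries.

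Uvalde had the most genes at least 2 units from California. MELO3C022883.2 had no read in any California library. At Uvalde the libraries labelled F39 had 19979, 18564 and 13.3 reads and those labelled TTDV had 4146, 13362 and 1387. No library of Georgia, North Carolina or Arizona had a read of it either, so California shared this absence with 3 other fields. A count of 0 over the 6 California libraries allows up to 0.387 normalised reads (3 counts over the group, counting error only). California was thus at least 24732-fold below the Uvalde mean of 9575, a mean over libraries that ran from 13.3 to 19979 reads. The gene entered the test only through the Uvalde libraries, where it was high. Its limma adjusted p of 8.6e-07 therefore adds no support to these levels. MELO3C004373.2 had 1.43, 4.38 and 3.83 reads in F39 and 14.8, 3.61 and 39.2 in TTDV in California and 268989, 127913 and 170.1 in the libraries labelled F39 and 854, 844605 and 1238 in those labelled TTDV at Uvalde. The difference was -8.63 ± 1.24 (SE, limma adjusted p = 4.11e-05), and those from the other 3 fields lay between -0.38 ± 1.24 and 0.53 ± 1.24.

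MELO3C021688.2 and MELO3C012912.2 were higher in California than at Uvalde. MELO3C021688.2 had 2245, 8495 and 17874 reads in F39 and 40804, 47283 and 113669 in TTDV in California, against 177, 1508 and 1476 and 2029, 116 and 533 in the Uvalde libraries labelled F39 and TTDV, a difference of 4.95 ± 0.86 (SE, limma adjusted p = 0.000334). F39 Georgia replicate 3 held 488652 reads of it, more than any California library. MELO3C012912.2 had 278, 70.9 and 165 reads in F39 and 814, 2217 and 3259 in TTDV in California, so the TTDV libraries carried most of it, and 29.7, 45.2 and 25.2 and 40.5, 19.6 and 33.3 at Uvalde, a difference of 3.23 ± 0.40 (SE, limma adjusted p = 3.69e-06). In all, 1900 genes (10.9%) passed against Uvalde, 737 higher (4.24%) and 1163 lower (6.69%), with no overlap of libraries for 79 and 207, against 0.558% and 1.35% of all genes tested. Quantile normalization gave 1119 higher and 947 lower, so the balance between directions depended on the scaling. The count was 1171 without F39 California replicate 3 and 1161 without TTDV California replicate 3.

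**Figure D2:**
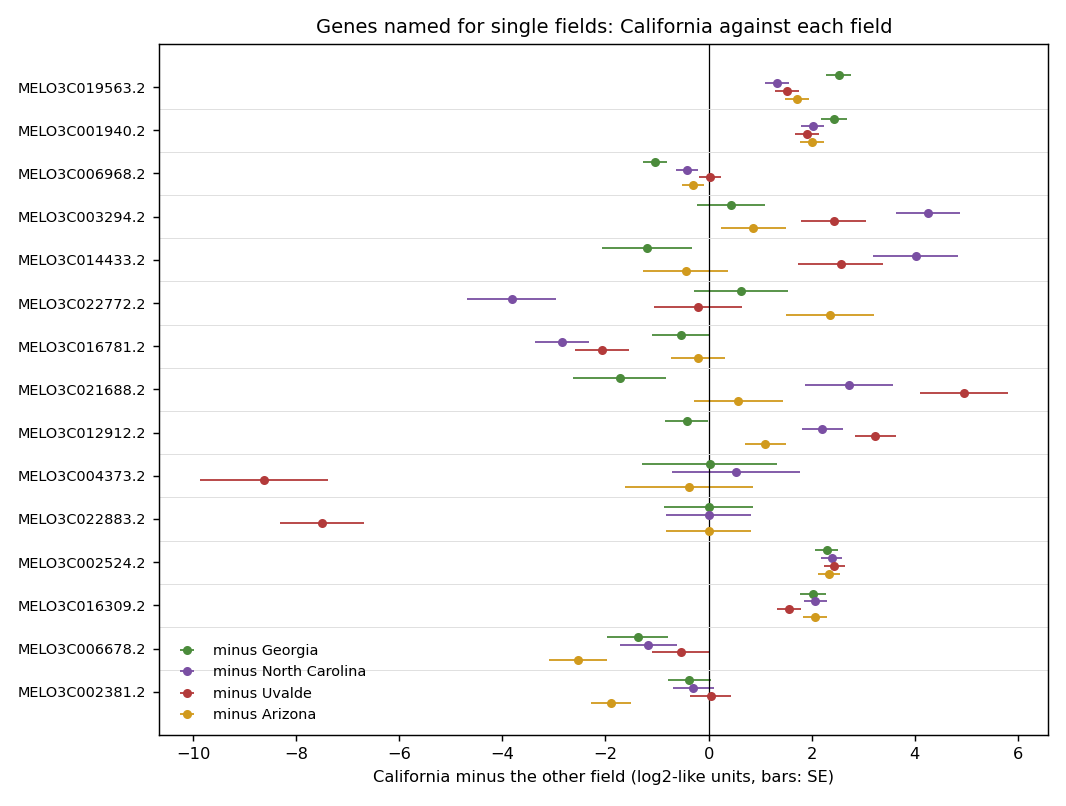
Difference between California and each of the 4 other fields (horizontal axis, log2-like units, points with SE bars) for the 15 genes named for single fields (vertical axis). MELO3C002524.2, MELO3C001940.2 and MELO3C019563.2 lie to the right of 0 for each field, whereas MELO3C022883.2 and MELO3C004373.2 are far from 0 for Uvalde alone.

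The comparison was also made within each cultivar. In F39, MELO3C015238.2 had 115, 196 and 403 reads in California, against 761 to 5914 (median 1799) in the 12 F39 libraries elsewhere. The groups did not overlap, and the difference was -3.01 ± 0.45 (SE, limma adjusted p = 0.000554). TTDV California, at 2185, 3078 and 2198 reads, lay within the range of 356 to 3262 (median 2359) of the 11 other TTDV libraries. MELO3C007658.2 showed the same arrangement. F39 California had 32.9, 31.4 and 42.7 reads against 203 to 789 (median 388), giving -2.69 ± 0.48 (SE, limma adjusted p = 0.0038), while TTDV California had 552, 571 and 368 against 15.7 to 871 (median 197). Without F39 California replicates 1 or 2 the latter gene lost its call (adjusted p from 0.000304 to 0.0659 over the left-out libraries), and MELO3C015238.2 kept its call throughout.

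Other genes were higher in F39 California. MELO3C031601.2 had 23632, 9962 and 11701 reads there, against 95 to 7832 (median 762) in F39 elsewhere, a difference of 3.89 ± 0.95 (SE, limma adjusted p = 0.0315). TTDV California had 512, 602 and 444, within the range of TTDV elsewhere. MELO3C003188.2 had 5868, 3932 and 4567 reads in F39 California, against 181 to 3800.0 (median 696), a difference of 2.60 ± 0.67 (SE, limma adjusted p = 0.0397). F39 North Carolina replicate 2, at 3800.0 reads, came within reach of the lowest California library. These calls were less stable. MELO3C031601.2 lost its call on leaving out F39 North Carolina replicate 1 or any F39 California library (adjusted p from 0.00506 to 0.283), and MELO3C003188.2 on leaving out any of 11 libraries (from 0.00883 to 0.287). With the compared groups only neither passed, and MELO3C003188.2 did not pass with no filter, over ranges of 0.00157 to 0.0552 and 0.000506 to 0.0638 for the 10 other settings.

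Within F39, 266 genes (1.53%) passed, 131 higher (0.754%) and 135 lower (0.777%) in California, with medians of 0.99 and -1.08 units. The libraries of 60 and 57 of them did not overlap, against 0.978% and 0.771% of all genes tested. Quantile normalization gave 234 higher and 110 lower, and voom 311 and 115. Without F39 California replicates 1 and 2 in turn the count was 16 and 19, and without F39 North Carolina replicate 1 it was 171. It was 482 without F39 Georgia replicate 2, 409 without F39 Uvalde replicate 3, 475 without TTDV Uvalde replicate 2 and 494 without TTDV North Carolina replicate 3. Leaving out both F39 Georgia libraries gave 769, with 262 of the 266. Without the 6 Uvalde libraries 1052 genes passed, and 251 of the 266 were among them.

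Within TTDV, MELO3C016259.2 had 556, 902 and 1172 reads in California, against 2.95 to 457 (median 95.9) in the 11 TTDV libraries elsewhere, a difference of 2.65 ± 0.58 (SE, limma adjusted p = 0.0115). F39 California had 9.3, 1.46 and 11.5. MELO3C003132.2 had 2351, 3976 and 4380.0 reads in TTDV California, against 87.7 to 1670.0 (median 359), a difference of 2.64 ± 0.66 (SE, limma adjusted p = 0.0261). For both genes TTDV Georgia came next below California, with 286 and 457 reads of the first and 1647 and 1670.0 of the second. MELO3C008331.2 was lower in TTDV California, at 76.5, 54.1 and 31.8 reads against 95.8 to 14725 (median 834), a difference of -3.24 ± 0.77 (SE, limma adjusted p = 0.0213). MELO3C033353.2 had 5.53, 0.722 and 5.3 reads against 7.37 to 486 (median 178), a difference of -2.64 ± 0.56 (SE, limma adjusted p = 0.00933). Its highest TTDV group was Uvalde as labelled, at 486, 322 and 383 reads, where the libraries labelled F39 had 1.12, 1.59 and 3.99.

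In all, 542 genes (3.12%) passed within TTDV, 403 higher (2.32%) and 139 lower (0.8%) in California, with medians of 1.28 and -1.04 units, and the libraries of 97 and 47 of them did not overlap (1.25% and 1.09% of all genes tested). Voom gave 599 higher and 56 lower. This comparison rested on the Uvalde libraries as labelled. Without them 86 genes passed, 78 of them among the 542, and the 4 genes named for TTDV no longer passed, with limma adjusted p of 0.129, 0.135, 0.0727 and 0.108 in the order given. With voom MELO3C008331.2 and MELO3C033353.2 did not pass either. Each of the 4 also lost its call without TTDV California replicates 2 or 3, over left-out ranges of 0.008 to 0.165, 0.0177 to 0.235, 0.00548 to 0.212 and 0.00307 to 0.0813. The sign stayed the same for 539 of the 542. The count was 288 without TTDV Georgia replicate 1 and 217, 116 and 45 without TTDV California replicates 1, 2 and 3.

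**Figure D3:**
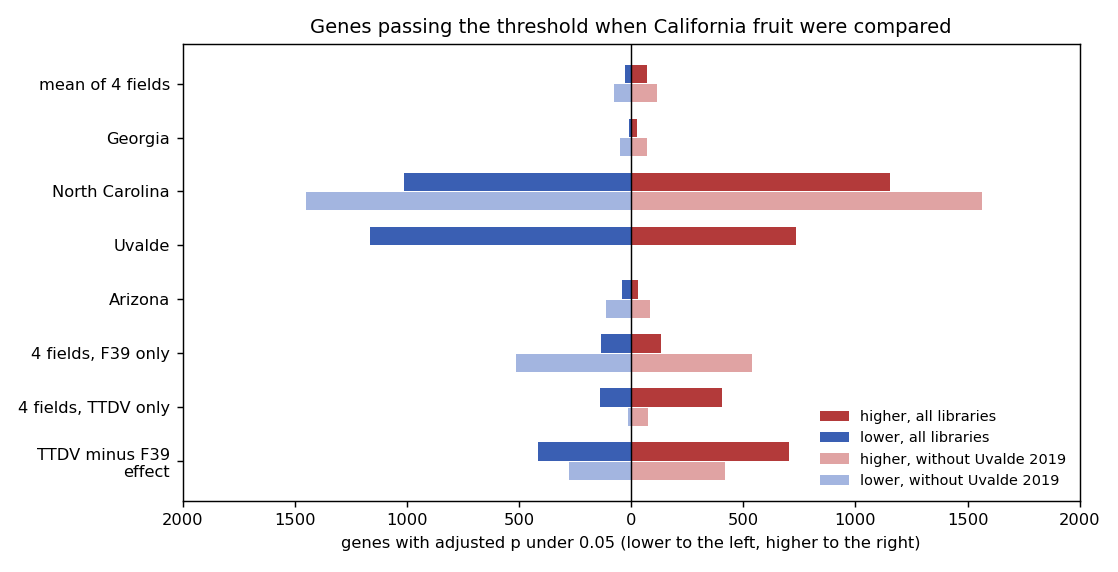
Genes with adjusted p under 0.05 in each comparison (horizontal axis, number of genes, higher to the right of 0 and lower to the left), with all libraries and without the Uvalde libraries. The comparison with Uvalde has no bar without them. North Carolina (2171 genes) and Uvalde (1900) exceed Georgia (38) and Arizona (69), and without Uvalde the F39 count is 1052 and the TTDV count 86.

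The difference between the cultivars was tested directly. MELO3C022978.2 had 1.43, 20.4 and 3.19 reads in F39 California and 2806, 3492 and 7238 in TTDV California. Elsewhere F39 ranged from 7.76 to 190.1 (median 62.5) and TTDV from 2.25 to 7420.0 (median 323), so 2 of the 3 F39 California libraries lay below all other F39 libraries and TTDV California lay in the upper part of the TTDV range. The California difference was -1.61 ± 0.60 in F39 and 3.51 ± 0.60 in TTDV, and the second exceeded the first by 5.12 ± 0.85 (SE, limma adjusted p = 0.00194). Without the Uvalde libraries the TTDV difference was 2.31 (limma adjusted p = 0.118). The difference of effects was then 3.94 (limma adjusted p = 0.0234). MELO3C024582.2 had 25.7, 123 and 898 reads in F39 California and 11158, 11788 and 11618 in TTDV California, where the 3 libraries lay close together. Its effects differed by 5.26 ± 1.37 (SE, limma adjusted p = 0.0233). TTDV Georgia held more of it, at 15354 and 17525 reads, and F39 Arizona had 7910.0, 5534 and 4592.

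The opposite arrangement was seen for MELO3C008014.2, with 14952, 3219 and 338 reads in F39 California and 6.46, 8.66 and 0 in TTDV California. The 3 F39 libraries spread widely, and the effects differed by -6.42 ± 1.42 (SE, limma adjusted p = 0.00936). MELO3C018658.2 had 15162, 2784 and 1130.0 in F39 California and 18.4, 26.7 and 14.8 in TTDV California, a difference of effects of -5.82 ± 1.57 (SE, limma adjusted p = 0.0266). TTDV California was lower than each other TTDV library for this gene apart from TTDV Arizona replicates 2 and 3, which had 20.7 and 20.1 reads against at most 26.7 in California. Voom put the difference of effects at an adjusted p of 0.125 for MELO3C008014.2 and 0.144 for MELO3C018658.2, within ranges over the 10 other settings of 3.72e-05 to 0.125 and 6.9e-05 to 0.144. MELO3C024582.2 and MELO3C018658.2 lost their calls without F39 California replicates 1 or 2 or any TTDV California library (adjusted p from 0.00555 to 0.113 and from 0.0134 to 0.13), MELO3C008014.2 without F39 California replicate 1 (from 0.0029 to 0.0651), and MELO3C022978.2 under none of them.

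In all, the California effect differed between the cultivars for 1117 genes (6.43%), with 703 higher (4.04%) and 414 lower (2.38%) in TTDV than in F39. The effects had opposite signs for 686 of the 703 and 407 of the 414. Among the 703, the median difference was -0.75 units in F39 and 0.98 in TTDV, and TTDV minus F39 was 1.86 in California against 0.12 over the other fields. Among the 414, the medians were 0.74 in F39 and -0.69 in TTDV, and TTDV minus F39 was -1.48 in California against -0.05 elsewhere. Of the 703, F39 California was the lowest of the 10 groups for 246 and TTDV California the highest for 304, against 1608 and 1520 of the 17383 genes tested. Of the 414, F39 California was the highest for 204 and TTDV California the lowest for 214, against 1449 and 2122 of the genes tested. These counts come from the values that chose the genes and describe them. The Uvalde labels enter the means of the other fields in both cultivars with opposite sign.

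Compared within California alone, which no Uvalde label touches, TTDV and F39 differed for 2920 genes (16.8%), 1684 higher and 1236 lower in TTDV. Without the Uvalde libraries the California effect differed between the cultivars for 696 genes, of which 579 were among the 1117, and 1114 of the 1117 kept their sign. Quantile normalization gave 690 higher and 632 lower. Dropping F39 California replicates 1 and 2 in turn left 293 and 279 genes, and dropping each TTDV California replicate in turn left 580, 433 and 299. F39 California was more variable than TTDV California, with a median SD of 0.29 units between libraries against 0.20.

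**Figure D4:**
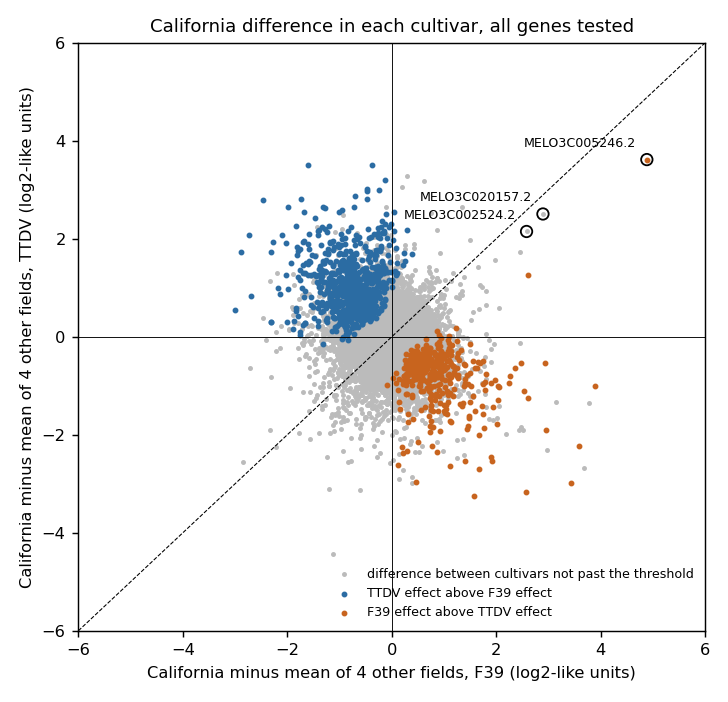
California minus the mean of the 4 other fields in F39 (horizontal axis) and TTDV (vertical axis), in log2-like units, 1 point per gene for 17383 genes. The dashed line marks equal effects, and blue and orange points are the 703 and 414 genes whose effects differ past the threshold, lying mostly in the quadrants of opposite sign. The circled MELO3C005246.2, MELO3C020157.2 and MELO3C002524.2 are high in both cultivars.

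**Figure D5:**
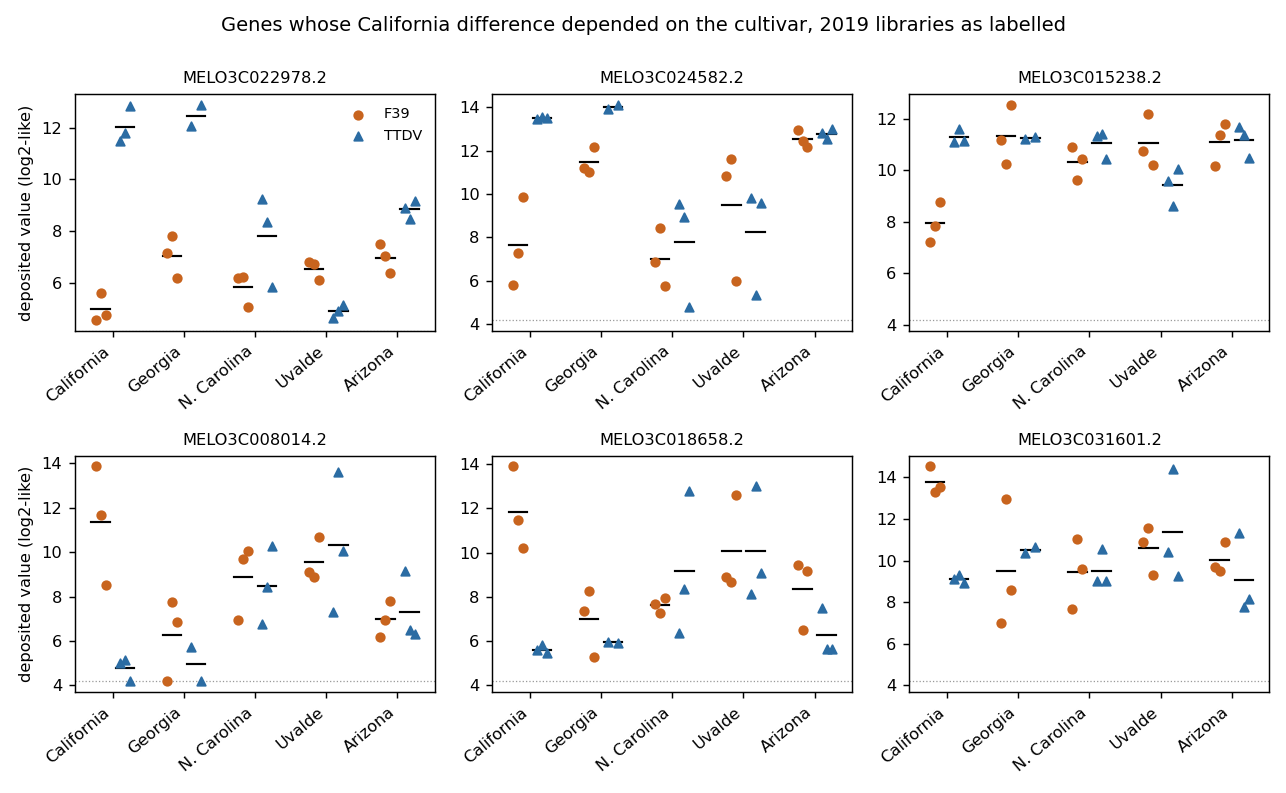
Deposited log2-like values (vertical axis) by field (horizontal axis) of 6 genes whose California difference depended on the cultivar, with circles for F39, triangles for TTDV and short lines for group means, under the labels as deposited. In California the cultivars are apart for each gene, as for MELO3C022978.2 with at most 20.5 reads in F39 and at least 2806 in TTDV.

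The genes high in California were also looked up in libraries outside the comparison. MELO3C005246.2 had at most 9.58 reads in F39 and none in TTDV at Uvalde 2018, and at most 2.15 in TTDV Indiana. MELO3C002524.2 had 52.1, 17.3 and 42.4 in F39 and 25.1, 38.2 and 41.7 in TTDV at Uvalde 2018 and 17.8, 14.2 and 22.2 in TTDV Indiana, all below California. MELO3C019563.2 had 0.767, 8.66 and 3.42 in F39 and 44.1, 88.3 and 116 in TTDV at Uvalde 2018, where TTDV replicate 3 exceeded the lowest California library. MELO3C016309.2 had 48.7 reads in TTDV Uvalde 2018 replicate 3, above the 3 TTDV California libraries. MELO3C020157.2 had 178, 204 and 5470.0 reads in TTDV Indiana, where replicate 3 exceeded every California library.

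The 24 libraries of 8 other cultivars grown at Weslaco in 2019 were normalised apart by the authors, so their levels are only set beside those above. MELO3C005246.2 ranged from 0 to 4.49 reads (median 0) there, with no read in 20 of the 24. MELO3C002524.2 ranged from 4.57 to 60.6 reads (median 16.8), MELO3C001940.2 from 0 to 37.1 reads (median 6.59) and MELO3C019563.2 from 8.04 to 97.5 reads (median 36.9). MELO3C002524.2 and MELO3C019563.2 stayed below every California library, whereas MELO3C001940.2 reached 37.1 against 34.1 in the lowest California library. MELO3C020157.2 reached 2992 in a library of Weslaco, where the cultivar TH-6 had the highest mean. Of the genes named as lower in California than at Uvalde, MELO3C022883.2 ranged from 0 to 54733 reads (median 2.84) at Weslaco. MELO3C004373.2 ranged from 20.6 to 1475257 reads (median 127.5) there. The cultivar TH-6 had the highest mean of both genes, at 18245 and 491866 reads. Nearly all of each mean came from a single library. High levels were thus found outside Uvalde, but the medians over Weslaco were low.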

How the data were processed

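The deposited values are variance-stabilised, log2-like expression values per gene for 38 libraries of fruit RNA-seq, and the Weslaco libraries stand in a separate table normalised apart. DESeq and DESeq2 are listed, without versions, per the submitters' processing notes. Which aligner, counter, build and annotation were used is not given in the sources used here. Whether counting used strand is not given either, so reads of overlapping genes cannot be told apart.

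From these values, reads were recovered by inverting the transform, with at least 99.9733% of the values of each library whole within 0.05. Levels are these reads over each library's size factor. A gene was tested if at least 3 libraries lay 1 unit above the lowest value, which is about 9.08 reads. This left 17383 of 29980 genes. limma 3.58.1 in R 4.3.3 was fitted with 13 group coefficients over the 38 libraries, with trend and robust moderation, and p-values were Benjamini-Hochberg adjusted over all genes tested, at a threshold of 0.05. The scripts were tested on simulated counts with changes planted at California alike in both cultivars. A difference between cultivars and an unequal spread between groups were not simulated.

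Named genes were those past the threshold whose California libraries all lay beyond the compared libraries, or, for the cultivar difference, with effects of opposite sign, ranked by the size of the difference. Where there was none, genes with the same sign in each cultivar were taken. At most 2 higher and 2 lower were named per comparison. The genes used to compare libraries with their cultivar labels were chosen after the data were seen, at a gap of 2 units. The groups compared and the rules were chosen with earlier results of these data known. Of the gene IDs, 0 matched the reference gene table (assembly USDA_Cmelo_AY_1.0), so pathway lists were not described and no sequence is shown. Alternatives covered the filter, the normalization, the moderation, weights per library, the groups fitted, voom on the recovered reads and libraries left out.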

Additional observations from a re-analysis of the deposited data

Results flagged for a closer look

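The California difference itself differed between F39 and TTDV for 1117 of 17383 genes tested (6.43%) by the limma test of that difference. Of these, 15 were named above. Most of the 15 were chosen within a single cultivar or on this same difference, so their number is partly built in. The TTDV difference minus the F39 difference was -1.27 for MELO3C005246.2, which was high in California in both cultivars, and -1.34 for MELO3C016309.2. It was 3.32 for MELO3C012912.2. Among genes named within F39 it was -4.90 for MELO3C031601.2, -3.85 for MELO3C003188.2, 3.56 for MELO3C015238.2 and 3.51 for MELO3C007658.2. Among genes named within TTDV it was 3.96 for MELO3C016259.2, 3.37 for MELO3C003132.2, -4.81 for MELO3C008331.2 and -3.75 for MELO3C033353.2. The genes named for the difference itself had 5.26 for MELO3C024582.2, 5.12 for MELO3C022978.2, -6.42 for MELO3C008014.2 and -5.82 for MELO3C018658.2. Without the Uvalde libraries the 15 genes kept their sign and 13 passed, MELO3C016309.2 and MELO3C033353.2 being the exceptions.

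In TTDV Indiana, which entered no comparison, replicate 3 had 5470.0 reads of MELO3C020157.2, above all 23 compared libraries outside California. The other Indiana libraries had 178 and 204 reads. The cause was not tested.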

How the results depend on the processing

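No paired analysis was possible because the columns carry no replicate numbers and the labels do not say that a number marks a shared plant, plot or day. Unless stated, the cause of a change was not tested. With weights per library, many more genes passed: 2580 for California against the 4 fields, 1210 for Georgia, 6517 for North Carolina, 5237 for Uvalde, 3715 for Arizona, 3462 within F39, 5518 within TTDV and 5501 for the cultivar difference. Without the Uvalde libraries the counts that moved were 192 for the 4 fields, 119 for Georgia, 194 for Arizona, 1052 within F39, 86 within TTDV and 696 for the cultivar difference. Without 2 F39 Georgia libraries they were 229 for the 4 fields, 206 for Georgia, 136 for Arizona and 769 within F39. Without the pair of similar libraries they were 333 for the 4 fields, 316 for Georgia, 266 for Arizona, 1126 within F39, 852 within TTDV and 1970 for the cultivar difference. Fitting only the compared groups gave 22 for Georgia and 170 within F39, quantile normalization gave 110 for Arizona, and voom gave 426 within F39. Leaving out each library in turn gave 23 to 163 for the 4 fields, 8 to 140 for Georgia, 1380 to 2828 for North Carolina, 1161 to 2522 for Uvalde, 22 to 153 for Arizona, 16 to 494 within F39, 45 to 778 within TTDV and 279 to 1596 for the cultivar difference. Leaving those single libraries out moved 62 counts beyond 1.5 times the reported ones and kept 170 within it. Under the other settings 28 counts moved and 51 stayed within 1.5 times. In the comparison each was named for, no named gene changed sign. In other comparisons signs could change, as for MELO3C021688.2 within F39, at 0.20 with all libraries and -0.78 without the Uvalde libraries. In the comparisons they were named for, tests of named genes kept their call in 283 cases under other settings and lost it in 21. With a library left out they kept it in 802 cases and lost it in 97.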
